A study of Mus musculus with 16 samples.

Results

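Border-associated macrophages are the macrophages that sit in the meninges and along blood vessels of the central nervous system, and they were followed here in mouse spinal cord by 8 marker genes, taken by symbol: *Mrc1*, *Cd163*, *Lyve1*, *F13a1*, *Pf4*, *Ms4a7*, *Stab1* and *Cbr2*. All 8 of the 8 named genes were in the table of 18167 genes. They were listed as known markers and not by a value of this table, but with earlier results of these data known. The question put to them was whether perivascular and meningeal macrophages rise together with the microglia of the diseased cord.

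RNA from whole spinal cord of 16 mice was sequenced, 1 library per mouse. Mutant mice carried a transgene for human profilin1 with the G118V change, a cause of amyotrophic lateral sclerosis (line Tg(Prnp-PFN1*G118V)838Kiaei), and control mice carried the unchanged human profilin1 (line Tg(Prnp-PFN1)850Kiaei), both on C57BL/6N. In both strains the prion protein gene promoter of the MoPrP.Xho vector drives the human protein, so no group was free of a transgene, and each genotype is represented by 1 transgenic line. The groups were mutant young (MY, n = 3, 50 days old), wild-type young (WY, n = 3, 50 days old), mutant old at end stage (MO, n = 5, 175 to 245 days old) and wild-type old (WO, n = 5, 190 to 294 days old). All mice were labelled male. The labels put all 6 young mice in library batch 1, and in each old group 3 mice in batch 1 and 2 (numbers 4 and 5) in batch 2. Both batch 2 mice of WO were 294 days old and its batch 1 mice 190 days old, so batch and age cannot be told apart within WO.

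Expression is given as log2(1 + FPKM), where FPKM is fragments mapped to a gene, scaled to transcript length and library size, after the batch adjustment the authors applied. On this scale a gene at 1 FPKM has a value of 1, and a fold change of a gene well below 1 FPKM is understated. A value slightly below 0 can arise from the adjustment. How many reads lie behind each gene is unknown, and precision is given by the spread between mice. A gene was called when limma gave a Benjamini-Hochberg FDR at or below 0.05 over all 18167 genes and a fold change of at least 1.5, which is 0.585 on the log2 scale.

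Markers of the tissue matched the label: the 5 motor neuron genes were all in the table at a mean of at least 1, and *Hoxb8*, a position gene of the cord, averaged 5.77 in WO, whereas *Emx1*, a forebrain gene, averaged 0.02 in WO. MO5 went against the label male. *Xist*, the RNA of the inactive X chromosome, was at 3.21 in MO5 and between -0.36 and 0.37 in the other 15 mice, and *Ddx3y*, a gene of the Y chromosome, was at 1.95 in MO5 and between 4.06 and 4.74 in the others. The called counts of the markers and of the gene lists were therefore also taken without MO5, and values without it are given for the markers that passed the FDR limit in WO vs. MO and where stated.

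Border-associated macrophages arise largely from embryonic precursors shared with microglia, but stay outside the parenchyma and take up material from blood, cerebrospinal fluid and the vessel wall. They carry scavenger and endocytic receptors that most resting microglia express at low level. The border is not strict in disease, since activated microglia and macrophages newly derived from blood monocytes can turn on several of these genes, and some of the markers are also made by other cells, such as *Pf4* by platelets and *Lyve1* and *Stab1* by lymphatic and sinusoidal endothelium.

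In whole cord the markers were faint. In WO the mean levels in log2(1 + FPKM), with SD over 5 mice, ran from *Stab1* at 1.14 ± 0.18 and *Pf4* at 0.73 ± 0.24 through *Cbr2* at 0.47 ± 0.14, *F13a1* at 0.45 ± 0.08 and *Cd163* at 0.41 ± 0.05 to *Mrc1* at 0.27 ± 0.07, *Lyve1* at 0.18 ± 0.03 and *Ms4a7* at 0.09 ± 0.12. The neighbours *Cbr2*, *F13a1* and *Cd163* differed by less than the larger of their SDs, and *Lyve1* and *Ms4a7* overlapped between mice. In MO the order changed at the top, with *Ms4a7* at 1.99 ± 0.71 and *Stab1* at 1.71 ± 0.32, which overlapped, followed by *Pf4* at 1.07 ± 0.33 and *Cbr2* at 0.71 ± 0.15, while *F13a1*, *Mrc1*, *Lyve1* and *Cd163* lay between 0.41 and 0.50. Averaged over all mice, *Stab1* alone reached 1 (1.28).

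**Figure D1:**
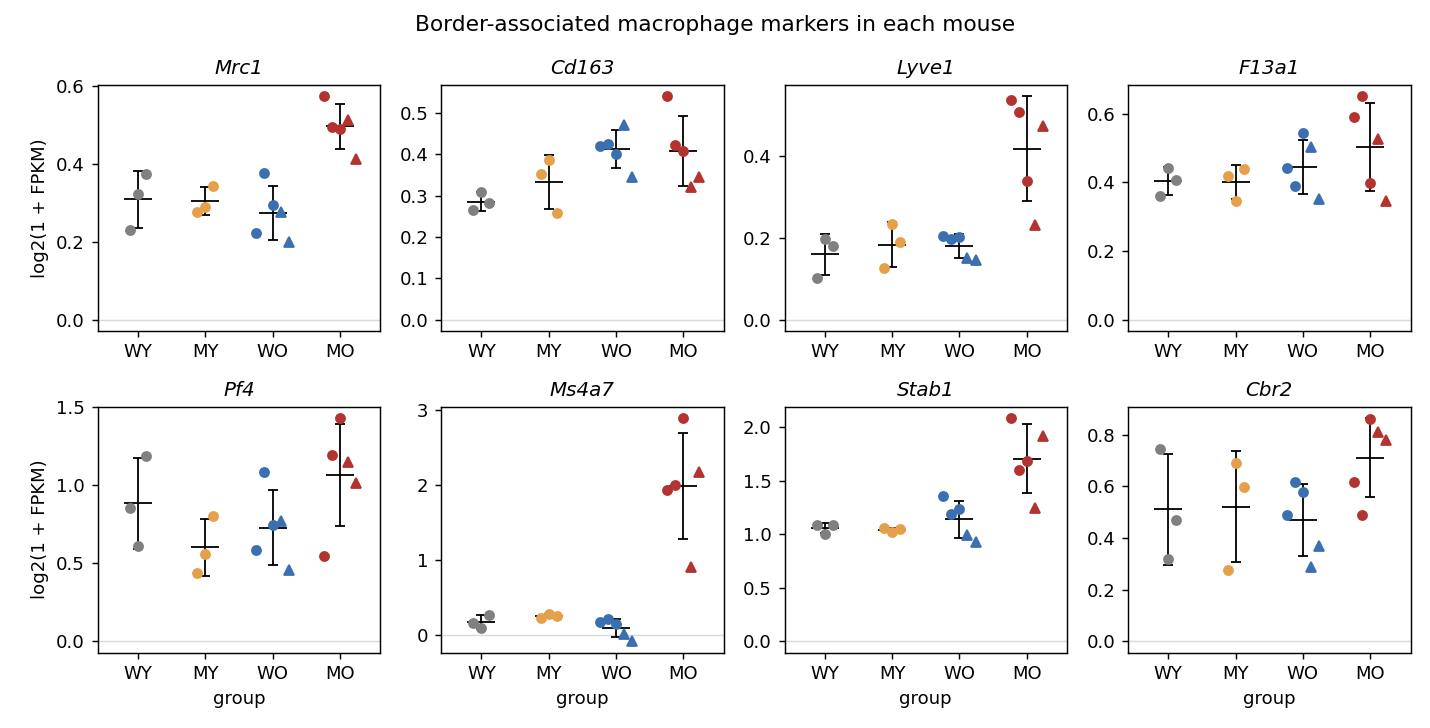
Level of each of the 8 markers in log2(1 + FPKM) (vertical axes, each with its own scale) in every mouse of the groups WY, MY, WO and MO. Circles are mice of batch 1, triangles mice of batch 2, and the black line with bars is the mean ± SD (n = 3, 3, 5 and 5); all MO mice lie above all other mice for *Mrc1* and *Ms4a7*.

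The comparison of WO with MO asks what differs at end stage between old mice with mutant and unchanged profilin1. WO4 and WO5, at 294 days, were older than every MO mouse, and MO4 and MO5 of the same batch were 224 and 175 days old, so the ages match less well in batch 2. The leading marker was *Ms4a7*, a four-pass membrane protein of the family that includes CD20, found on border macrophages and on macrophages that enter the brain from blood. Its level was 1.94 in MO1, 2.00 in MO2, 2.90 in MO3, 0.91 in MO4 and 2.18 in MO5, against 0.18 in WO1, 0.21 in WO2, 0.15 in WO3, 0.02 in WO4 and -0.09 in WO5. In the young mice it was 0.22, 0.28 and 0.25 in MY1 to MY3, and 0.15, 0.09 and 0.27 in WY1 to WY3. All 5 MO mice stood above all 11 others, with MO3, the oldest MO mouse, highest and MO4 lowest. The median was 3.01 FPKM in MO and 0.109 FPKM in WO. The log2 fold change was 1.90 (SE 0.28, FDR 0.000706, n = 5 and 5), 1.85 without MO5 (FDR 0.00241), 2.11 in batch 1 and 1.58 in batch 2.

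*Stab1*, a large scavenger receptor that clears altered lipoproteins and matrix fragments, was the most abundant marker averaged over all mice. Its level was 2.09 in MO1, 1.60 in MO2, 1.68 in MO3, 1.25 in MO4 and 1.92 in MO5, against 1.35 in WO1, 1.19 in WO2, 1.23 in WO3, 0.99 in WO4 and 0.93 in WO5. 4 of 5 MO mice were above all other mice, and MO4 was below WO1. The log2 fold change was 0.57 (SE 0.15, FDR 0.0144), just under the fold limit, 0.52 without MO5 (FDR 0.0354), 0.53 in batch 1 and 0.62 in batch 2. *Stab1* passed the limit when MO2, MO4, WO1 or WO3 was left out (range over the mice 0.47 to 0.68).

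*Mrc1*, the mannose receptor CD206 that takes up glycoproteins and is the usual marker of perivascular macrophages, had small but separate values. It was at 0.57 in MO1, 0.50 in MO2, 0.49 in MO3, 0.51 in MO4 and 0.41 in MO5, against 0.22 in WO1, 0.38 in WO2, 0.30 in WO3, 0.28 in WO4 and 0.20 in WO5. The young mice were at 0.28, 0.29 and 0.34 (MY1 to MY3) and 0.23, 0.32 and 0.38 (WY1 to WY3). Every MO mouse was above every other mouse. The log2 fold change was 0.22 (SE 0.04, FDR 0.00343) and 0.24 without MO5 (FDR 0.00332), with 0.22 in batch 1 and 0.23 in batch 2, which is below the fold limit on this scale. In a fit of batch 1 alone the *Mrc1* FDR was 0.0597; the median was 0.410 FPKM in MO and 0.211 FPKM in WO.

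*Lyve1*, a hyaluronan receptor of lymphatic endothelium that also marks a subset of perivascular and meningeal macrophages, was at 0.54 in MO1, 0.51 in MO2, 0.34 in MO3, 0.23 in MO4 and 0.48 in MO5. In WO it was at 0.21 in WO1, 0.20 in WO2, 0.20 in WO3, 0.15 in WO4 and 0.14 in WO5. The old groups did not overlap, although MO4 was close to WO1 and below MY2, which was at 0.24. The log2 fold change was 0.24 (SE 0.06, FDR 0.0109), 0.22 without MO5 (FDR 0.0273), 0.26 in batch 1 and 0.21 in batch 2.

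The remaining 4 markers did not pass the FDR limit with all mice. *Pf4*, a chemokine stored in platelets and made by border macrophages, was at 0.55 in MO1, 1.20 in MO2, 1.43 in MO3, 1.14 in MO4 and 1.02 in MO5, against 0.46 to 1.09 in WO, and MO1 and MO5 lay inside the WO range (log2 fold change 0.34, SE 0.16, FDR 0.147). Without MO1 the *Pf4* FDR was 0.0200. *Cbr2*, a carbonyl reductase seen in tissue-resident macrophages, ranged from 0.49 to 0.86 in MO and from 0.29 to 0.62 in WO, with a log2 fold change of 0.24 (SE 0.09, FDR 0.0570) that was 0.09 in batch 1 and 0.47 in batch 2; the FDR was 0.0219 without MO2 and 0.0444 without WO2. *F13a1*, the A subunit of coagulation factor XIII, overlapped between groups at 0.34 to 0.65 in MO and 0.35 to 0.54 in WO (log2 fold change 0.06, SE 0.06, FDR 0.575). *Cd163*, the scavenger receptor for complexes of haemoglobin and haptoglobin, was at 0.54 in MO1, 0.42 in MO2, 0.41 in MO3, 0.32 in MO4 and 0.34 in MO5, and at 0.42 in WO1, 0.43 in WO2, 0.40 in WO3, 0.47 in WO4 and 0.34 in WO5. The *Cd163* ranges lay over each other, with a log2 fold change of -0.00 (SE 0.05, FDR 0.960).

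Counted over the markers, 1 of 8 (*Ms4a7*) was called higher in MO than in WO and 0 of 8 were called lower, where 4.08% of all genes were called higher and 0.517% lower. With the FDR limit alone, 4 of 8 were higher (*Mrc1*, *Lyve1*, *Ms4a7* and *Stab1*) against 15.0% of all genes. The fold limit acts on a scale that compresses faint genes: with 0.1 in place of 1 added to FPKM, the same 4 markers were called, against 7.00% of all genes, at log2 fold changes of 4.12 for *Ms4a7*, 0.88 for *Lyve1*, 0.86 for *Stab1* and 0.74 for *Mrc1*. There a value below 0 was counted as 0 FPKM. The size of the *Ms4a7* value depends on that floor, since WO5 lay at -0.09 and WO4 at 0.02. Every MO mouse was above every WO mouse for 3 of 8 markers (*Mrc1*, *Lyve1* and *Ms4a7*), against 11.3% of all genes, and above all other mice for 2 of 8 (*Mrc1* and *Ms4a7*), against 7.58%. The median log2 fold change was 0.24 over the markers and 0.00035 over all genes. In bulk RNA more cells and more RNA per cell cannot be told apart, for any of these genes.

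The comparison of MY with MO follows mutant mice from before symptoms to end stage, and shares its MO mice with the comparison above. *Ms4a7* was higher by 1.73 (SE 0.36, FDR 0.00923), and by 1.69 without MO5 (FDR 0.0215). *Stab1*, at 1.06 in MY1, 1.02 in MY2 and 1.05 in MY3, was below every MO mouse, and was higher in MO by 0.66 (SE 0.16, FDR 0.0193), and by 0.61 without MO5 (FDR 0.0388). Leaving out MY1, MY2 or MY3 moved the *Stab1* FDR to between 0.0657 and 0.0664, and leaving out MO1 moved its log2 fold change to 0.57, so the call was lost in each case; without MO1 *Pf4* was called in its place, at 0.595 (FDR 0.00811). *Mrc1* differed by 0.19 (SE 0.04, FDR 0.0142) and *Lyve1* by 0.24 (SE 0.07, FDR 0.0491), which without MO5 became 0.21 (FDR 0.00961) and 0.22 (FDR 0.0913). *Mrc1* missed the FDR limit without MY1 (0.0685) or MY2 (0.0577), with quantile normalization (0.0694) and with the replicate number as a block (0.0570). *Lyve1* missed it without MO1, MO2, MO3 or any of the MY mice, with quantile normalization and with the block (0.0510). The other 4 markers had FDR values from 0.0943 for *Pf4*, at 0.47, to 0.399 for *Cd163*, at 0.08. Thus 2 of 8 markers were called higher and 0 of 8 lower, beside 4.11% and 0.787% of all genes; 4 of 8 passed the FDR limit alone, beside 13.1%. With 0.1 added to FPKM 4 of 8 were called, beside 6.79%. For 3 of 8 (*Mrc1*, *Ms4a7* and *Stab1*) every MO mouse was above every MY mouse, beside 15.7%. The median log2 fold change was 0.21, against 0.0047 over all genes. All MY mice were in batch 1, and with the mice of batch 1 alone 2 of 8 markers, *Ms4a7* and *Stab1*, were called higher, beside 4.63% of all genes.

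The comparisons among mice without end-stage disease gave no calls. WY with WO addresses adult ageing without the mutation: limma called 0 of 8 markers, where 0.253% of all genes were called, and the log2 fold changes ran from -0.15 to 0.13. *Cd163* was the 1 marker of 8 that passed an unadjusted limit of 0.05, beside 2447 of all 18167 genes. That is a similar share, so nothing particular to the markers is read from it. The *Cd163* levels of 0.27, 0.31 and 0.28 in WY1 to WY3 were all below the 0.34 to 0.47 of the 5 WO mice, a difference of 0.13 (SE 0.04, limma FDR 0.208). WY with MY addresses the mutation before symptoms: limma called 0 of 8, where 0.00550% of all genes were called. An unadjusted limit of 0.05 was passed by 0 of 8, beside 1301 of all 18167 genes. The log2 fold changes ran from -0.28 to 0.08.

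Whether the change from young to old was larger in mutants, the difference MO minus MY less the difference WO minus WY, was tested in 1 limma fit of 16 mice. It was called higher in mutants for 1 of 8 markers, beside 4.65% of all genes, and with 0.1 added to FPKM for 2 of 8 (*Ms4a7* and *Mrc1*), beside 6.79%. The 1 marker of the main fit was *Ms4a7*, at 1.81 (SE 0.40, FDR 0.00585), and at 1.77 without MO5 (FDR 0.0106). *Mrc1* passed the FDR but not the fold limit at 0.23 (SE 0.07, FDR 0.0318), and missed the FDR limit in batch 1 (0.0858), with quantile normalization (0.105), with the replicate block (0.112) and without MY1, MY2, WO5, WY2 or WY3, whereas *Pf4* at 0.62 (SE 0.26, FDR 0.113) and *Stab1* at 0.58 (SE 0.20, FDR 0.0608) did not pass the FDR with all mice in the main fit. *Stab1* passed it with batch as a term (0.0376), in batch 1 (0.0370), with the replicate block (0.0245), among genes with a mean of at least 1 (0.0489) and without MO4 or WO1. *Pf4* passed it without MO1, and so did *Lyve1* (main FDR 0.0968) without MO4.

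Microglia were read from the 5 microglia markers that the study used for cell composition, *Cd68*, *Cx3cr1*, *Itgam*, *Itgax* and *Ptprc*. How much of these 5 genes comes from border macrophages or other myeloid cells cannot be told in bulk RNA and was not tested. A contrast with them is therefore one of gene lists, and does not separate microglia from border macrophages. *Cx3cr1*, the fractalkine receptor, was the most abundant. All 5 were called higher in WO vs. MO, beside 4.08% of all genes, from *Itgam*, a complement receptor subunit, at 0.99 (FDR 0.000431) to *Cd68*, a lysosomal membrane protein, at 3.22 (FDR 2.34e-05), with a median of 1.68. All 5 were also called in MY vs. MO, beside 4.11% of all genes, with a median of 1.497. Their mean log2(1 + FPKM) was 3.73 in MO1, 4.15 in MO2, 4.62 in MO3, 3.72 in MO4 and 3.85 in MO5, and 2.14, 2.18, 2.15, 1.76 and 1.74 in WO1 to WO5. The lowest MO mouse was above the highest WO mouse, and the young mice lay between 2.06 and 2.24.

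Each marker was then set against this microglial mean by subtracting it in every mouse. On that relative scale *Ms4a7* stood at -1.78 in MO1, -2.14 in MO2, -1.72 in MO3, -2.80 in MO4 and -1.66 in MO5, and at -1.96 in WO1, -1.97 in WO2, -2.005 in WO3, -1.75 in WO4 and -1.83 in WO5. The old groups overlapped, with MO4 lowest. The difference was -0.12 (SE 0.22 from the spread of its own values, exact permutation p = 0.746, two-sided, n = 5 and 5), and for MY vs. MO it was -0.14 (SE 0.28, exact permutation p = 0.786, n = 3 and 5). The sign of the *Ms4a7* difference depends on the reference: for WO vs. MO it was 0.83 with the median of the 5 genes in place of the mean (exact permutation p = 0.0476) and 1.01 with the mean of 12 homeostatic microglia genes (exact permutation p = 0.0317). It also turned to 1.48 with 0.1 added to FPKM (exact permutation p = 0.0159, n = 5 and 5), and to 0.07 without MO4. For MY vs. MO the 3 values were 0.77, 0.97 and 0.96 (exact permutation p = 0.143 each, n = 3 and 5). In each of these MO4 was the lowest MO mouse and the other 4 were above all WO or MY mice. These p are not adjusted for the number of references tried.

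For the other 7 markers every MO mouse was below every WO mouse and every MY mouse on the relative scale, in WO vs. MO by 1.45 for *Stab1* at the least and 2.02 for *Cd163* at the most. The rise of the subtracted mean itself gives this result to nearly any gene, since 98.8% of all genes were likewise below in WO vs. MO and 98.7% in MY vs. MO, so no p is given for these 7 and nothing particular to them is read from it. The sizes depend on the reference: in WO vs. MO the 7 were lower by 0.32 (*Stab1*) to 0.89 (*Cd163*) with the homeostatic genes, and by 0.50 (*Stab1*) to 1.07 (*Cd163*) with the median of the 5 genes. The limma fit of the relative values called 7 of 8 markers lower in both comparisons, beside 99.0% and 98.8% of all genes, with the same 7 of 8 without MO5. That fit gave all 18167 genes 1 common standard error, 0.22 in WO vs. MO and 0.26 in MY vs. MO, because the spread of the subtracted mean enters every gene and is counted as if measured anew in each. Its FDR values are too small for that reason and are not given, and its calls add nothing to the values above. With the homeostatic genes as reference it called 5 of 8 markers lower in WO vs. MO, beside 90.4% of all genes, and 2 of 8 (*Cd163* and *F13a1*) in MY vs. MO, beside 81.6%. With the median these were 6 of 8 and 5 of 8, beside 94.6% and 92.2%. *Ms4a7* was the 1 marker of 8 that this fit called higher, with both references and in both comparisons, beside 0.853% and 1.05% of all genes (homeostatic) and 0.611% and 0.710% (median). These calls add nothing either, since their FDR values are too small in the same way. In MY vs. MO the exact permutation p of *Ms4a7* was 0.143 with either reference.

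The broader microglial lists moved as follows. Of 12 homeostatic microglia genes 7 were called higher and 0 lower in WO vs. MO (median 0.88): *Fcrls*, an Fc receptor-like protein, was higher by 2.95, while *Sall1*, a transcription factor of microglial identity, was at -0.01. Of 12 disease-associated microglia genes 12 were called higher (median 2.71), led by *Cst7*, a cystatin, at 4.78 and *Gpnmb*, a lysosomal glycoprotein, at 4.39. In MY vs. MO the counts were 7 of 12 and 12 of 12. Over all genes 4.08% were called higher in WO vs. MO and 4.11% in MY vs. MO. The border macrophage markers had a lower median, at 0.24, and *Ms4a7* alone lay inside the range of the 5 microglial markers. The lists differ in abundance, since 1 of 8 border markers and all genes of the 3 microglial lists had a mean of at least 1, and the scale compresses faint genes. With 0.1 added to FPKM the medians in WO vs. MO were 0.69 for the border markers, 0.99 for the homeostatic genes, 2.35 for the 5 microglial markers and 2.85 for the disease-associated genes. The difference between the lists was not tested. Without MO5 the called counts of these 3 lists were the same in both comparisons.

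**Figure D2:**
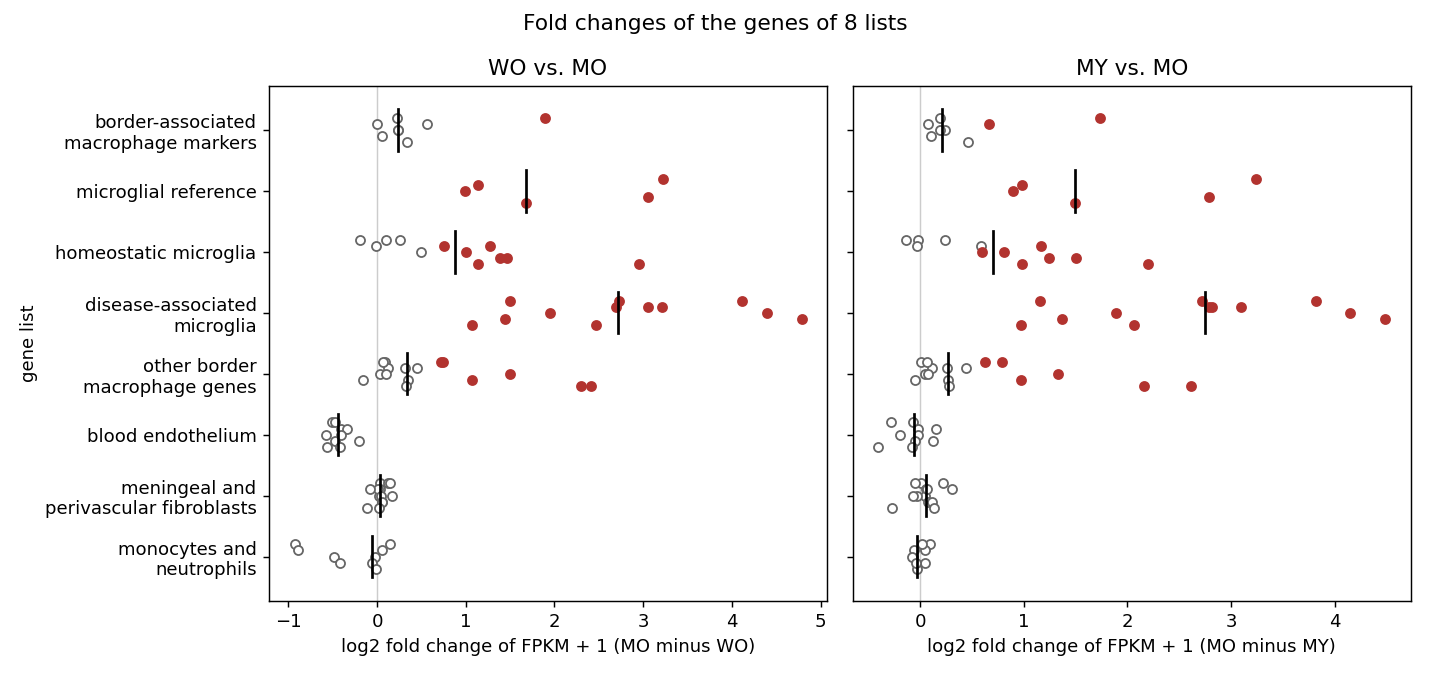
Log2 fold changes on the log2(1 + FPKM) scale (horizontal axes) of the single genes of 8 lists (vertical axis) in WO vs. MO (left) and MY vs. MO (right), which share the MO mice. Each point is a gene, filled red where called and open where not, and the black line is the median of the list; 1 of 8 border-associated macrophage markers was called in WO vs. MO and 2 of 8 in MY vs. MO, against 12 of 12 disease-associated microglia genes in both.

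A second list of border macrophage genes, 16 of 22 in the table, gave 6 called higher and 0 lower in WO vs. MO (median 0.34) and the same counts in MY vs. MO (median 0.27). Of all genes 4.08% and 4.11% were called higher. With 0.1 added to FPKM 11 of 16 were called higher in WO vs. MO (median 0.90) and 10 of 16 in MY vs. MO (median 0.86), beside 7.00% and 6.79% of all genes. Its most abundant gene was *Hpgd*, which degrades prostaglandins, higher by 1.499 (SE 0.20, FDR 0.000378). The largest changes were those of *Ms4a6c*, of the same family as *Ms4a7*, at 2.41 (FDR 8.69e-05) and *Wfdc17*, a small secreted protein of activated macrophages, at 2.30 (FDR 0.000742). *Slc40a1*, the iron exporter ferroportin, at -0.16 (FDR 0.226), and *Clec10a*, a galactose lectin, at 0.04 (FDR 0.538), were the lowest and were not called. *Cd209f*, *Cd209b*, *Cd209d*, *Cd209g*, *Ccl8* and *Timd4* had no row in the table and were not analysed here.

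The relatives of the leading marker were examined as the Ms4a family, of which 6 of 17 further genes were in the table. In WO vs. MO 3 were called higher, beside 4.08% of all genes, and 0 lower. The 3 were *Ms4a6c*, *Ms4a6d* at 2.02 (SE 0.23, FDR 0.000131) and *Ms4a6b* at 0.97 (SE 0.18, FDR 0.00239). *Ms4a6d* was the most abundant. *Ms4a4d* at 0.07 and *Ms4a4b* at 0.10 were the lowest. The summed level of these 6 genes was 26.1 FPKM in MO1, 17.6 in MO2, 16.5 in MO3, 8.41 in MO4 and 11.7 in MO5, and 1.11 to 2.66 FPKM in WO. MO4 was again the lowest of the MO mice, and far above the WO mice.

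Around the scavenger role of *Cd163*, 3 of 10 genes of haemoglobin, haem and iron handling were called higher and 0 lower in WO vs. MO (median 0.21), and 3 of 10 in MY vs. MO. Over all genes 4.08% were called higher in WO vs. MO and 4.11% in MY vs. MO, which are the shares beside each main count of this paragraph. *Slc11a1*, an iron and manganese exporter of phagosomes, was higher by 2.07 (FDR 2.48e-05) and *Hmox1*, the haem oxygenase induced after *Cd163* uptake, by 1.43 (FDR 4.66e-05), with *Cd163* itself at -0.00. The most abundant gene, *Fth1*, the ferritin heavy chain, was at 0.38 (FDR 0.0133), below the fold limit. Of 16 other scavenger and endocytic receptors 4 were called higher and 0 lower (3 in MY vs. MO). They were led by *Cxcl16*, a chemokine and lipoprotein receptor, at 1.97 and *Msr1*, the class A scavenger receptor, at 1.31 (FDR 6.46e-05). With 0.1 added to FPKM 7 were called higher and 1 lower, beside 7.00% and 1.41% of all genes. In MY vs. MO these counts were 7 and 0, beside 6.79% of all genes called higher. Of 9 hyaluronan genes around *Lyve1* 1 was called higher in both comparisons, the hyaluronan receptor *Cd44* at 1.64 (FDR 1.46e-05 in WO vs. MO). With 0.1 added to FPKM 1 was called higher and 1 lower in WO vs. MO, and 1 and 0 in MY vs. MO. Of 9 growth factors and receptors of macrophages 7 were called higher in WO vs. MO and 8 in MY vs. MO, among them *Ccl2*, a monocyte chemokine, at 1.46 and *Csf2rb*, a cytokine receptor chain, at 1.34, whereas *Il34*, a ligand of the receptor Csf1r, was at 0.09.

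Lists of other cells that could carry the markers came next, 10 lists with 78 genes in the table. Of these 3 were called higher and 0 lower in WO vs. MO, which is 3.85% higher, beside 4.08% of all genes. With 0.1 added to FPKM 8 of 78 were called higher, beside 7.00% of all genes, and 6 of 78 lower (3 of blood endothelium, 2 of platelets and 1 of mural cells), beside 1.41%. Their part in the marker results was not tested. Platelet genes, which share *Pf4*, had 0 of 9 called (median 0.02), and their summed level was 4.18 to 5.67 FPKM in MO and 3.86 to 6.04 in WO; *Ppbp*, another platelet chemokine, was at -0.29 (FDR 0.0191). Lymphatic endothelium, which shares *Lyve1*, had 1 of 5 called, *Pdpn*, a gene also of astrocytes, at 1.40, while *Prox1*, the regulator that defines lymphatic identity, was at -0.34 (FDR 0.0132). The summed level of this list was 15.6 to 21.8 FPKM in MO and 10.3 to 12.1 in WO, a separation made by *Pdpn*, since the other 4 genes were at -0.34 to 0.04 (list median 0.01). Blood endothelium had 0 of 10 called and a median of -0.44, with *Cdh5*, a junction cadherin, at -0.57 (FDR 0.00122); the median of the list was -0.06 in MY vs. MO and 0.19 in WY vs. WO (WO minus WY). Meningeal and perivascular fibroblasts, which would track how much meninges came with a cord, had 0 of 13 called (median 0.03), and their summed level of 43.4 to 55.7 FPKM in MO overlapped the 38.8 to 54.8 in WO; *Mgp*, the most abundant, was at 0.01.

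Mural cells had 1 of 7 called, *Tagln*, an actin-binding protein, at 1.75, with *Rgs5*, the most abundant and a pericyte gene, at -0.58 (FDR 0.0135). Monocytes and neutrophils had 0 of 9 called (median -0.05), *Ccr2*, the receptor that defines inflammatory monocytes, averaged 0.10 in MO and 0.05 in WO, and the most abundant, *S100a9*, was at -0.89 (SE 0.55, FDR 0.266). WO2 stood out here, with a summed level of 36.3 FPKM against 3.52 to 8.55 in the other WO mice and 1.05 to 8.40 in MO. Dendritic cells had 0 of 6 called, but their summed level was lower in every MO mouse (8.24 to 9.37 FPKM) than in every WO mouse (10.6 to 11.9); most of that sum is *Flt3*, a growth factor receptor, at -0.36, and the other 5 genes were at -0.14 to 0.05. Lymphocytes had 0 of 8 called, but their faint sum was higher in every MO mouse (1.01 to 1.39 FPKM) than in every WO mouse (0.183 to 0.761). Red blood cells had 0 of 4 called, with *Hba-a1* at -0.89 (SE 0.41, FDR 0.142). The red blood cell sum was 11.7 FPKM in MO1 against 43.3 to 64.4 in the other MO mice and 61.1 to 96.8 in WO. Schwann cells and nerve root had 1 of 7 called, *Egr2* at 0.82. Of the 5 motor neuron genes 1 was called lower, beside 0.517% of all genes. It was *Chat*, the enzyme of acetylcholine synthesis, at -0.67 (FDR 3.13e-05). Of the 7 position genes none was called. In MY vs. MO each of these lists had the same number called higher, and none had a gene called lower. Without MO5 the markers called were still 1 of 8 in WO vs. MO, 2 of 8 in MY vs. MO and 1 of 8 in the difference of the age effect, and the counts of all lists were the same but for *Cdh5* and *Rgs5*, which became called lower in WO vs. MO, and the growth factors, with 7 in place of 8 in MY vs. MO. With 0.1 added to FPKM more of the faint genes were called, such as 4 of 8 lymphocyte genes higher in WO vs. MO (median 0.56), beside 7.00% of all genes. The border markers had the same count there, 4 of 8 (median 0.69). In MY vs. MO 2 of 8 lymphocyte genes and 4 of 8 border markers were called higher, beside 6.79%.

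Within groups the markers did not move as 1 block. After the mean of its own group was taken from each value, the 28 pairs of markers had a median Pearson r of 0.18 over 16 mice, from -0.49 for *F13a1* and *Cbr2* to 0.72 for *Lyve1* and *Stab1*, and 17 of 28 were positive. Against the mean of the 5 microglial genes, r was 0.73 for *Ms4a7*, 0.50 for *Pf4*, 0.31 for *Cbr2* and 0.14 for *Stab1*. It was 0.06 for *Cd163*, 0.05 for *Mrc1*, 0.03 for *Lyve1* and -0.13 for *F13a1*. Among the 13530 genes with a mean of at least 1, those nearest to *Ms4a7* by this measure were *Gpnmb* (r = 0.93), *Igf1* (r = 0.92) and *2510039O18Rik* (r = 0.91). *Gpnmb* and *Igf1* were higher in MO than in WO by 4.39 and 1.54, and *2510039O18Rik* by 0.07. The nearest to *Stab1* were *Jade2*, *Slc22a18* and *Klf15* (r = 0.93, 0.93 and 0.92), and the nearest to *Mrc1* was *Acvr2a* (r = 0.80). These are the highest of many correlations over few mice, and describe these libraries only.

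The 8 genes lie on 8 different chromosomes in GENCODE M21 on GRCm38, the build of the authors' alignment (mm10), so none neighbours another. *Ms4a7* is on the minus strand at chr19:11321039-11336146, *Stab1* on the minus strand at chr14:31139013-31168641, *Mrc1* on the plus strand at chr2:14229392-14332057, *Lyve1* on the minus strand at chr7:110850607-110863239, and *Pf4*, the shortest, on the plus strand at chr5:90772435-90773383. *Cd163* is at chr6:124304656-124330527 (plus), *F13a1* at chr13:36867178-37050244 (minus) and *Cbr2* at chr11:120729489-120732114 (minus).

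RefSeq promoters on GRCm38.p6 were found for 7 of 8 markers, without *Lyve1*, and the 250 bases before the start were searched on both strands for GAGGAAGT, a site of the type bound by the macrophage factor PU.1, and for TGCTGAC, a Maf half-site. GAGGAAGT was in 2.44% and TGCTGAC in 3.81% of 32851 promoters of the same length. Only *Pf4* held the first, on the strand opposite to the printed one, so that the printed window reads ACTTCCTC, and no marker window held the second. Shown are the windows of the markers called in a comparison, *Ms4a7* (chr19:11336147-11336396, minus strand, the first of 2 RefSeq starts) and *Stab1* (chr14:31168642-31168891, minus strand), and that of *Pf4* (chr5:90772185-90772434, plus strand), where capitals mark the match, which is a match of letters and not a site shown to be bound.
Ms4a7: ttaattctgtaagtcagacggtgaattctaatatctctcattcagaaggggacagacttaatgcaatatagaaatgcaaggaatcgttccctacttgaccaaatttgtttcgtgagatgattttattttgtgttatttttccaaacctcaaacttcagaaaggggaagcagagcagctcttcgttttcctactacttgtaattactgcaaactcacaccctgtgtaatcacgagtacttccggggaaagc
Stab1: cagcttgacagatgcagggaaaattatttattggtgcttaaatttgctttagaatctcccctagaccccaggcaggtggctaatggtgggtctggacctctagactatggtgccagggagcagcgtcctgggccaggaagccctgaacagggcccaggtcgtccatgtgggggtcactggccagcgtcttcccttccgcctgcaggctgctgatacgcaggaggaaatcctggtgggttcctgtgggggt
Pf4: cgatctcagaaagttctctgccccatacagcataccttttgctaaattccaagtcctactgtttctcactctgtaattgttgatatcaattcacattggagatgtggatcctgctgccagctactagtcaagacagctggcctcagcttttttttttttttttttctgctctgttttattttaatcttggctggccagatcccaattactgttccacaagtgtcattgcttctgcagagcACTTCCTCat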

How the data were processed

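Whole spinal cord RNA of 16 mice was sequenced by the authors from stranded mRNA libraries. The log2 values were used as deposited: per the methods of the study, the authors used Trimmomatic for cleaning, TopHat for alignment to mm10 and Cufflinks for FPKM, removed genes at 0 in many mice, took log2(1 + FPKM) and adjusted 2 batches with ComBat. Versions, annotation and ComBat covariates were not given in the sources used here. Of the values 915 were below 0.

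Each comparison was fitted on its own 2 groups with limma 3.58.1 in R 4.3.3 (lmFit, eBayes, two-sided), with the second group minus the first. Exact permutation tests used SciPy 1.17.1 (two-sided p, the smaller tail times 2). In simulated data 99.5% of 200 changed genes were recovered in each of the 4 pairwise comparisons. Every planted change had a size of 2 on the log2 scale, up or down. That rate therefore does not apply to smaller changes, such as those of the markers other than *Ms4a7*. Named were all markers, and from each list genes among the 2 highest and 2 lowest log2 fold changes of WO vs. MO and its most abundant; *Emx1* and *Ms4a6b* were named outside that rule, after their values were seen. For the homeostatic microglia list 1 gene is not reported here by itself; the list counts and means include it. The members and lists were chosen with earlier results of these data known. The lists share some genes. The exact permutation tests of the relative values were added after the data were seen.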

Additional observations from a re-analysis of the deposited data

Results flagged for a closer look

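The change of *Ms4a7* with age differed between genotypes by 1.81 on the log2 scale (limma, FDR 0.00585 over 18167 genes, 16 mice), which is why it was singled out. In mutants it was higher in MO than in MY by 1.73, and in wild-type mice the levels of WO and WY overlapped. All MO mice were above all other mice, from 0.91 in MO4 to 2.90 in MO3. The WY and MY mice were all in batch 1, and with batch 1 alone *Ms4a7* was also called. No mouse stood apart from its group for any of the 8 markers or the 3 list means by Dixon's criterion, which was applied to the 5 mice of WO and of MO.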

How the results depend on the processing

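Of 699 comparisons of a single marker's value with its value under an alternative, 655 kept direction and side of the threshold, 15 lost the call, 14 gained it and 15 changed sign. The 699 include the values relative to the microglial mean, which the subtraction lowers for nearly any gene. The total is therefore not read as stability of the markers. *Ms4a7* was called in WO vs. MO and MY vs. MO under all alternatives that kept it, with log2 fold changes of 1.67 to 4.12 and 1.51 to 3.33. With 0.1 added to FPKM the markers called rose from 1 to 4 in WO vs. MO, from 2 to 4 in MY vs. MO and from 1 to 2 in the difference of the age effect, while the share of all genes called higher rose from 4.08% to 7.00%, 4.11% to 6.79% and 4.65% to 6.79%. With genes of a mean of at least 1 only *Stab1* was tested, and the counts were 0, 1 and 0. Quantile normalization left 1 in MY vs. MO. Relative to the microglial mean 7 markers were called lower in WO vs. MO and 7 in MY vs. MO; these counts became 5 and 2 with the homeostatic reference (beside 90.4% and 81.6% of all genes), 6 and 5 with the median of the reference genes (94.6% and 92.2%), and 1 and 1 of the 1 tested with a mean of at least 1, and stayed 7 and 7 under the other alternatives. Exact permutation tests in place of limma, with the fold limit kept, gave the same counts for the mean, the 2 other references and 0.1 added to FPKM. Against the mean, 98.8% (WO vs. MO) and 98.7% (MY vs. MO) of all genes had every MO mouse below, and so the smallest p. With the homeostatic reference the fold limit set the counts: *Pf4* in WO vs. MO had the smallest p but was at -0.55. The equal counts are therefore not read as stability of the markers. With each mouse left out in turn the counts ranged from 1 to 2 in WO vs. MO, 1 to 2 in MY vs. MO and 1 to 2 in the difference of the age effect, where *Pf4* joined without MO1 and *Stab1* without MO4 or WO1. In MY vs. MO without MO1 the 2 were *Ms4a7* and *Pf4*, not *Stab1*. The cause of the other changes was not tested.

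Signs changed for values near 0: *Cd163* in WO vs. MO was 0.042 in batch 1 and -0.038 to 0.017 with a mouse left out, and quantile normalization moved *F13a1* to -0.0083 in WO vs. MO and -0.017 in the difference of the age effect. *Ms4a7* against the microglial mean became, in WO vs. MO and MY vs. MO, 1.01 and 0.97 with the homeostatic reference, 0.83 and 0.77 with the median, and 1.48 and 0.96 with 0.1 added to FPKM. It was 0.10 in batch 1 for WO vs. MO, and with each mouse left out -0.21 to 0.075 and -0.23 to 0.051.

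With the replicate number of the labels as a block (replicate block) the counts were 1, 2, 0 and 0 for WO with MO, MY with MO, WY with WO and WY with MY, 1 in the difference of the age effect and 7 and 7 in the relative comparisons, the same as without it. Deviations from the group mean over all genes correlated above 0.1 for all same-numbered pairs in no comparison. In WY vs. WO r was 0.38, -0.13 and 0.19 for numbers 1 to 3, and numbers 1 and 3 correlated best with their own number; in MY vs. MO r was 0.18, 0.09 and 0.15, each best with its own. Whether the numbers pair mice is not given in the sources used here.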
